A study of Linum usitatissimum with 8 samples.

Results

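Messenger RNA levels in developing flax seeds were compared between the stages labelled DAP20 and DAP10, by RNA sequencing of 2 libraries per stage. Flax (Linum usitatissimum) is grown for its oil and its stem fibre, and the seeds were of 1 cultivar, Heiya No.14. The members are the 4 DAP20 and DAP10 libraries of the 8 in the series, chosen by their stage label, with every gene of the table. The other 4 libraries, 2 of DAP5 and 2 of DAP30, entered the fit and serve as stages that the comparison itself does not use. The labels do not spell out the stage names and give no treatment, and whether the replicates are separate plants or harvests is not stated, so the p-values speak only for the variation among these libraries, part of which could be technical.

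A seed first builds its embryo, endosperm and coat by cell division and patterning, and then fills with reserves before it dries. In flax the filling phase is known for storage proteins and for triacylglycerol oil rich in alpha-linolenic acid, an omega-3 fatty acid. The genes behind those phases could not be named here, because the deposited table pairs no gene ID with a name or description. Genes are therefore described by number, level, length and time course, the labelled tissue was not checked against marker genes, and no list of genes by function was tested. In whole seeds, fewer cells of a type and less RNA per cell cannot be told apart.

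Library totals were 22238190 and 19500351 counts at DAP20, against 15150199 and 12951493 counts at DAP10. Levels are in CPM, that is, counts put on 1 library size by TMM scaling, which takes most genes as unchanged. A gene was said to rise or fall when edgeR's quasi-likelihood test gave a false discovery rate (FDR) below 0.05 over all genes tested. Each replicate pair differed by more than counting noise, and the DAP20 pair differed most. The number of calls, and the fold changes of named genes on which that pair disagreed, are also given with either library left out.

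Most genes changed between the 2 stages, and the falls were steeper than the rises. Of 28749 genes tested, 15323 (53.3%) changed, with 7332 (25.5%) higher and 7991 (27.8%) lower at DAP20. The same fit called 23.6% of genes in DAP10 against DAP5 and 32.5% in DAP30 against DAP20, comparisons that share libraries with this one. The median log2 fold change was 1.34 over the genes that rose and -2.25 over those that fell, beside -0.03 over all genes tested. Falls of 4-fold or more made up 56.1% of the genes that fell, and rises of 4-fold or more made up 29.1% of those that rose. Changes of 16-fold or more were fitted for 677 genes that rose and for 1872 that fell.

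The split between rises and falls depended on the scaling. Scaled by library totals alone, 4572 genes rose and 10634 fell, so that 30.1% of the called genes rose in place of 47.8%. Under that scaling the median gene had a log2 fold change of -0.42, in place of -0.03. Of the 15323 genes called with TMM scaling, 12563 were also called with library totals. None of these changed direction, but a change of scaling shifts all genes alike, so opposite calls were all but impossible.

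Both DAP20 libraries lay above both DAP10 libraries for 7327 of the 7332 genes that rose, and below both for all 7991 that fell. Among all genes tested the same held upward for 37.5% and downward for 41.2%, so separation of the libraries was common without a call. The calls numbered 15100 without DAP20 replicate 1 and 14179 without DAP20 replicate 2. They numbered 10643 without DAP10 replicate 1 and 10010 without DAP10 replicate 2, and the genes that rose then numbered 4817 and 4441.

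**Figure D1:**
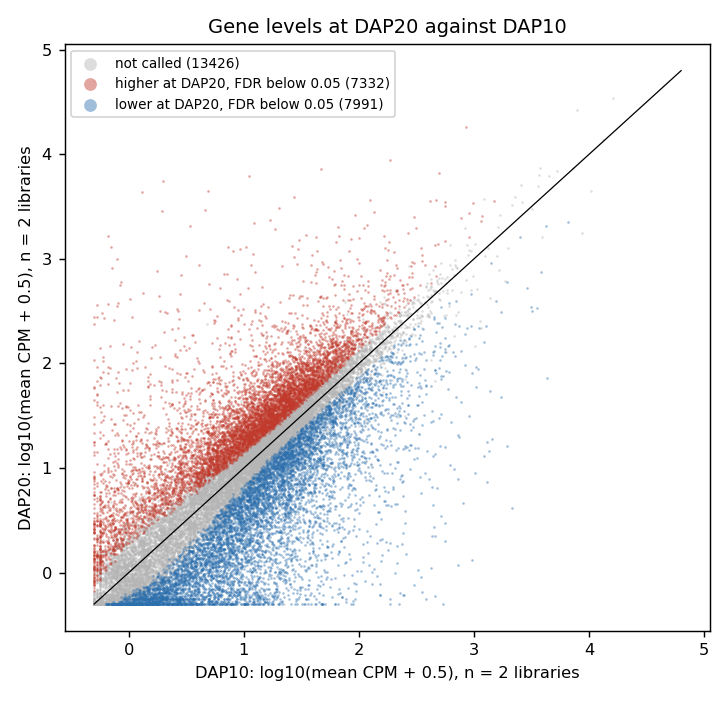
Mean level of each of the 28749 genes tested at DAP20 (vertical) against DAP10 (horizontal), as log10 of the mean CPM of 2 libraries plus 0.5. Red points rose (7332), blue points fell (7991), grey points were not called, and the line marks equal levels. The blue cloud reaches further from the line than the red one over most of the range, with a band of genes near 0 at DAP20 along the bottom edge.

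Abundant genes rose more often and sparse genes fell more often. Genes were binned by their mean CPM over all 8 libraries, which include the DAP20 and DAP10 libraries compared. A very high level at 1 stage can thus lift a gene into a higher bin, so the bins are not independent of the calls. Of 3515 genes under 1 CPM, 7.88% rose and 22.7% fell, and of 10368 genes at 1 to 10 CPM, 15.8% rose and 34.2% fell. At 10 to 100 CPM the order turned, with 35.5% of 13217 genes higher and 25.04% lower at DAP20. Of 1576 genes at 100 to 1000 CPM, 43.1% rose and 21.1% fell, and of the 73 genes at 1000 CPM or more, 39 rose and 8 fell. The power to call a change also grows with the count, which affects both directions. The bins were counted with TMM scaling only, and whether the order turns at the same level with library totals was not tested.

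The genes that rose took up most of the counts at DAP20, which are reads and not numbers of messenger molecules. As a description, since they were picked on these libraries, they held 51.4% and 57.1% of the counts in the DAP20 libraries, against 18.2% and 17.7% in the DAP10 libraries. The genes that fell held 7.89% and 6.68% at DAP20, against 36.3% and 36.9% at DAP10. The genes that were not called held 40.6% and 36.2% at DAP20, against 45.4% and 45.3% at DAP10. The outer stages, which did not choose the genes, gave the risen genes 19.6% and 21.3% at DAP5 and 59.4% and 61.1% at DAP30, and the fallen genes 40.6% and 39.2% at DAP5 and 7.07% and 6.61% at DAP30. Thus the DAP5 shares lay within a few points of those at DAP10, and the DAP30 shares near or beyond those at DAP20.

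A small number of genes held much of each group's share. Of the 7332 genes that rose, 253 held 50% of the group's share at DAP20, and of the 7991 that fell, 361 held 50% of their share at DAP10. The 10 risen genes highest at DAP20 held 8.83% and 10.3% of the counts there, against 0.200% and 0.154% at DAP10. The 10 fallen genes highest at DAP10 held 0.817% and 0.561% at DAP20, against 4.16% and 3.78% at DAP10. The leading risen genes therefore took a larger part of the counts than the leading fallen genes had held. Of that part, a single gene, Lus10004895.g.BGIv1.0, held 3.74% and 4.58% of the counts in the DAP20 libraries.

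The direction of the step matched that of the outer stages for most genes. DAP30 against DAP5 shares no library with DAP20 against DAP10, although the spread was estimated jointly. That outer comparison called 70.2% of all genes tested, of which 31.3% of the genes tested higher and 38.9% lower at DAP30. Of the genes that rose, 5522 (75.3%) were higher at DAP30 than at DAP5, 411 were lower and 1399 were not called. Of the genes that fell, 6515 (81.5%) were lower at DAP30, 268 were higher and 1208 were not called. The 411 and 268 exceptions were genes whose change between DAP10 and DAP20 ran against the net change over the series.

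The genes that rose were longer than those that fell, a property the comparison did not use. The deposited gene length had a median of 2218 bases (quartiles 1524 and 3352) for the risen genes, against 1884 bases (1302 and 2639) for the fallen ones and 2011 bases for all genes tested. Within the level bins the risen genes had the greater median length at 1 to 10, 10 to 100 and 100 to 1000 CPM. Risen and fallen medians were 1879 and 1832 bases at 1 to 10 CPM, and 2438 and 2078 bases at 10 to 100 CPM. At 100 to 1000 CPM they were 2360 and 1971 bases. Under 1 CPM the medians were 1194 and 1279 bases, and at 1000 CPM or more they were 1555 and 1993 bases, so there the order was the opposite. The definition of that length is not stated. Gene models added by the authors were called less often in both directions, with 194 of 1295 (14.98%) higher and 150 (11.6%) lower at DAP20, against 26.0% and 28.6% of the annotated genes. The added models were not matched to annotated genes by level, on which the share of calls depended.

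Genes switched on were taken as those whose DAP20 libraries both reached 10 CPM while the DAP10 mean was below 0.5 CPM, and genes switched off as the mirror image. There were 89 of the first kind (0.31% of the genes tested) and 273 of the second (0.95%). Every gene of both classes passed the filter on low counts and the FDR threshold, as their choice all but ensures. The gene just inside the limit had a DAP10 mean of 0.485 CPM and the one just outside 0.520 CPM for switching on, and for switching off the DAP20 means were 0.496 and 0.5001 CPM. With library totals the numbers were 75 on and 354 off, so more genes went off than on under both scalings.

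The genes switched on reached higher levels than the genes switched off had held. At DAP20 the median switched-on gene stood at 42.2 CPM (quartiles 25.6 and 105 CPM), 19 of them were between 100 and 1000 CPM and 4 were at 1000 CPM or more. At DAP10 the median switched-off gene stood at 19.6 CPM (quartiles 14.1 and 36.2 CPM), 19 were between 100 and 1000 CPM, none was at 1000 CPM or more, and 141 were below 20 CPM. Summed over the class, the 89 genes had 56484 and 68608 CPM in the DAP20 libraries, against 18.8 and 16.7 CPM in the DAP10 libraries. The 273 genes summed to 56.7 and 37.2 CPM at DAP20, against 10747 and 12140 CPM at DAP10. A single gene, Lus10004895.g.BGIv1.0, made up most of the first sum, and the other 88 genes together had 11887 and 12949 CPM at DAP20. Without that gene the classes thus held similar sums, spread over 88 genes in one and 273 in the other.

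No count in either library was seen at DAP10 for 11 of the switched-on genes, where 3 counts over both libraries equal 0.0979 CPM. It was seen at DAP20 for 46 of the switched-off genes, where 3 counts equal 0.0865 CPM. The rest had a few reads at the low stage. These floors cover counting error only.

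Switching on was mostly lasting. Of the 89 switched-on genes, 59 (66.3%) had at least 10 CPM in both DAP30 libraries, 14 lay lower and 16 were back below a mean of 0.5 CPM. Among all genes tested 42.4% had at least 10 CPM in both DAP30 libraries, but only 42.9% had it in both DAP20 libraries, which this class had by choice. Whether the class lasted more often than other genes at 10 CPM in both DAP20 libraries was not tested. The median gene of the class stood at 44.0 CPM at DAP30, beside 42.2 CPM at DAP20, with 44 genes higher and 45 lower at DAP30. At DAP5, 74 of the 89 were below 0.5 CPM and none had 10 CPM in both libraries, with a highest mean of 5.98 CPM. Hence 48 genes were low at DAP5 and DAP10 and high at DAP20 and DAP30, and 14 were above 0.5 CPM at DAP20 alone.

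Switching off ended expression that had mostly begun by DAP5, and no gene was back at 10 CPM in both libraries at DAP30. Of the 273 switched-off genes, 165 (60.4%) had at least 10 CPM in both DAP5 libraries, 98 lay lower and 10 were below 0.5 CPM. Among all genes tested 46.1% had at least 10 CPM in both DAP5 libraries, but only 46.8% had it in both DAP10 libraries, which this class had by choice. At DAP30, 235 of the 273 (86.1%) were below 0.5 CPM and 38 had a mean above that limit. None was at 10 CPM in both libraries, and the highest mean was 5.21 CPM. The most common course, taken by 143 genes, was high at DAP5 and DAP10 and below 0.5 CPM at DAP20 and DAP30. A further 8 genes were above 0.5 CPM at DAP10 alone.

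**Figure D2:**
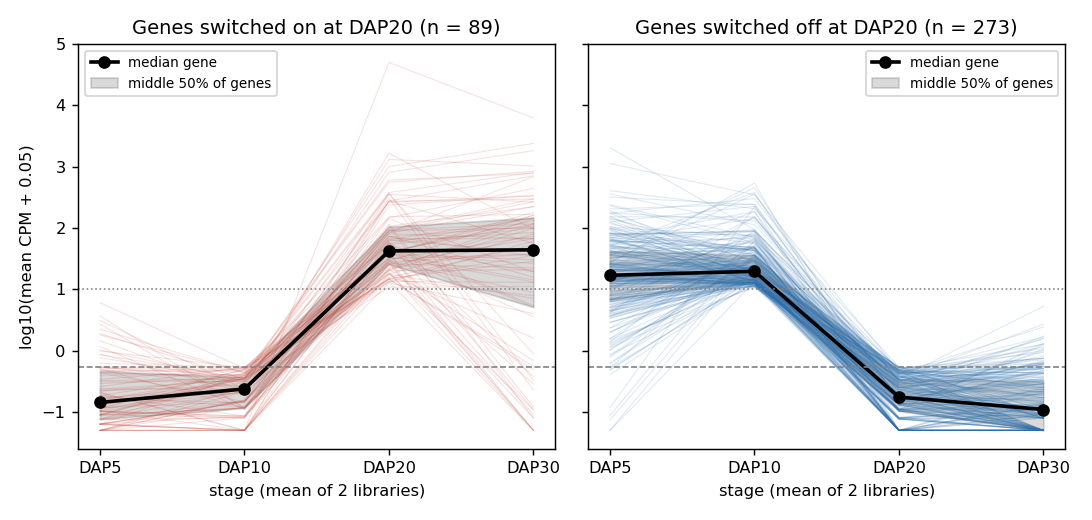
Levels of the 89 genes switched on (left) and the 273 switched off (right) over the 4 stages, as log10 of the mean CPM of 2 libraries plus 0.05. Thin lines are genes, the black line is the median gene, the grey band holds the middle 50% of genes, and the dotted and dashed lines mark 10 and 0.5 CPM. The switched-on genes stay near 44.0 CPM at the median at DAP30 with a spread downward, while the switched-off genes stay below 0.5 CPM for 235 of 273.

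The 2 risen genes with the highest level at DAP20 differed in how they got there. Lus10004895.g.BGIv1.0 had 44597 and 55659 CPM in the DAP20 libraries and was without a count in both DAP10 libraries, which puts it at least 508000-fold higher against a floor of 3 counts over both DAP10 libraries (edgeR FDR = 6.75e-05). It also had no count at DAP5, and at DAP30 it had 4794 and 7638 CPM, so all of its expression fell in the last 2 stages with its peak at DAP20. Per kilobase of deposited length it averaged 47200 CPM at DAP20, the highest of all genes in the table.

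Lus10022069.g.BGIv1.0 had 16380 and 19920 CPM in the DAP20 libraries, against 951 and 738 CPM in the DAP10 libraries. Both DAP20 libraries were above both DAP10 libraries, and the fitted log2 difference was 4.42 ± 0.37 (SE, edgeR FDR = 0.000106). Its levels were 16.2 and 14.5 CPM at DAP5 and 21580 and 22330 CPM at DAP30, so it was higher at each later stage without overlap between the libraries of neighbouring stages. Per kilobase it averaged 5421 CPM at DAP20, which placed it in rank 11 of the table.

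Both fallen genes with the highest level at DAP10 were far lower at DAP5 than at DAP10. Lus10021866.g.BGIv1.0 had 75.5 and 70.0 CPM in the DAP20 libraries, against 5318 and 3333 CPM in the DAP10 libraries. The groups did not overlap, and the log2 fold change was -5.89 ± 0.44 (SE, edgeR FDR = 7.29e-05). At DAP5 it had 0.490 and 1.09 CPM and at DAP30 34.2 and 39.8 CPM, so its high level was limited to DAP10 among these stages.

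Lus10010943.g.BGIv1.0 had 1053 and 441 CPM in the DAP20 libraries, against 3957 and 3731 CPM in the DAP10 libraries. The DAP20 libraries differed 2.39 times from each other but both were below DAP10, with a fitted log2 difference of -2.36 ± 0.55 (SE, edgeR FDR = 0.00922). At DAP5 it had 34.2 and 94.1 CPM, and at DAP30 358 and 340 CPM. The lower DAP20 library, replicate 2, was the one nearer to DAP30. Over the 15 alternatives tried all 4 of these genes kept their direction and their call, with FDRs up to 0.0385 for Lus10010943.g.BGIv1.0 and up to 0.00274 for the other 3.

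**Figure D3:**
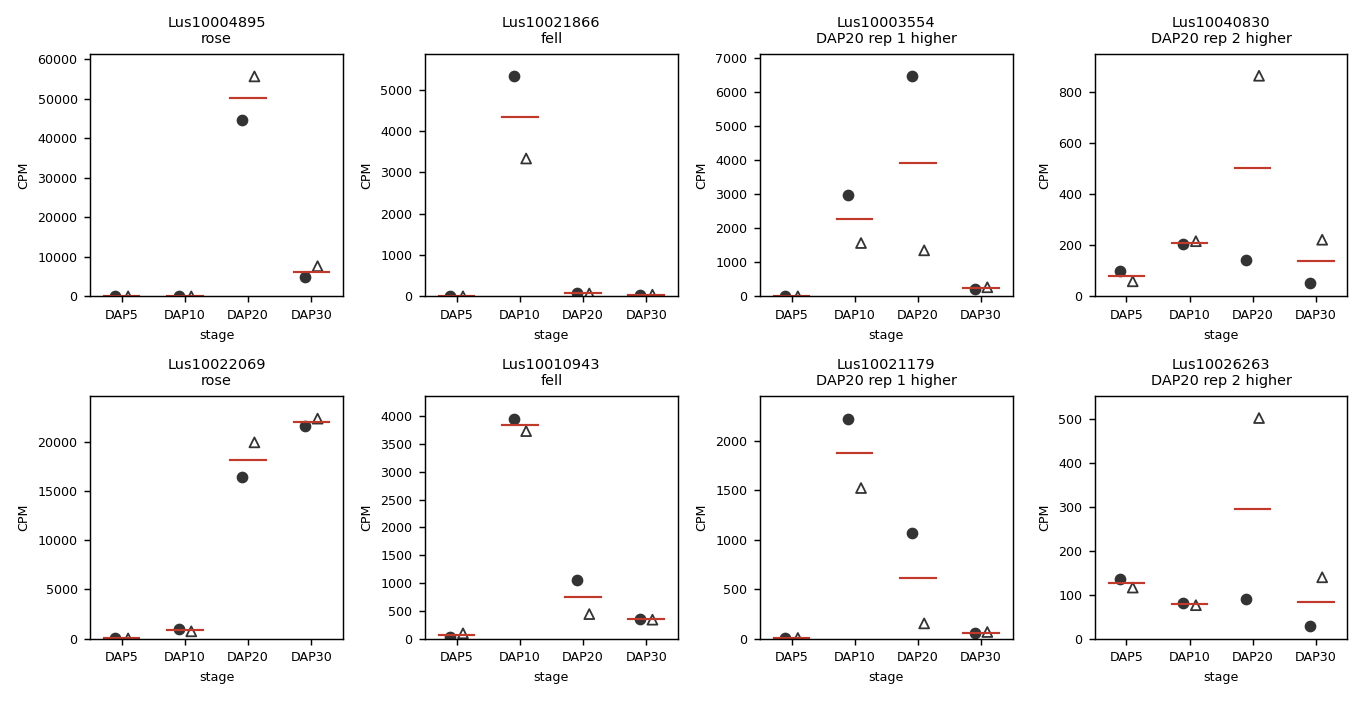
Level in CPM of the 8 genes named in the text in each library by stage, on linear axes that start at 0. Filled circles are replicate 1, open triangles replicate 2 and red bars the mean of both. In the left-hand columns the DAP20 replicates of Lus10004895, Lus10022069 and Lus10021866 lie within 1.25 times of each other, and in the right-hand columns they lie 4.78 to 6.94 times apart.

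The 2 DAP20 libraries disagreed on far more genes than the replicates of any other stage. Disagreement was taken as a ratio of at least 4 between the replicates, with 0.5 CPM added to both, and at least 10 CPM in the higher one. It was met by 114 of 14819 genes (0.769%) at DAP5, by 28 of 14562 (0.192%) at DAP10, by 369 of 14320 (2.58%) at DAP20 and by 24 of 13246 (0.181%) at DAP30. The ratios just inside and outside the limit were 4.01 and 3.99. At a ratio of 2 the shares were 3.43% for the DAP5 pair, 0.707% for the DAP10 pair, 9.86% for the DAP20 pair and 1.17% for the DAP30 pair. With 1 pair of libraries per stage these differences have no test.

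Replicate 1 was the higher library for 267 of these genes and replicate 2 for 102. At a ratio of 2 the split was 773 to 639, and at a ratio of 8 it was 125 to 24. Of the 369 genes, 351 met the limit at no other stage. It was met again by 5 (1.36%) at DAP5, 4 (1.08%) at DAP10 and 12 (3.25%) at DAP30, and among all 14320 genes by 0.482% at DAP5, 0.126% at DAP10 and 0.147% at DAP30. Of the 21 genes among the 14320 that met it at DAP30, 12 were thus in the set, and 11 of these had replicate 2 higher at both stages.

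**Figure D4:**
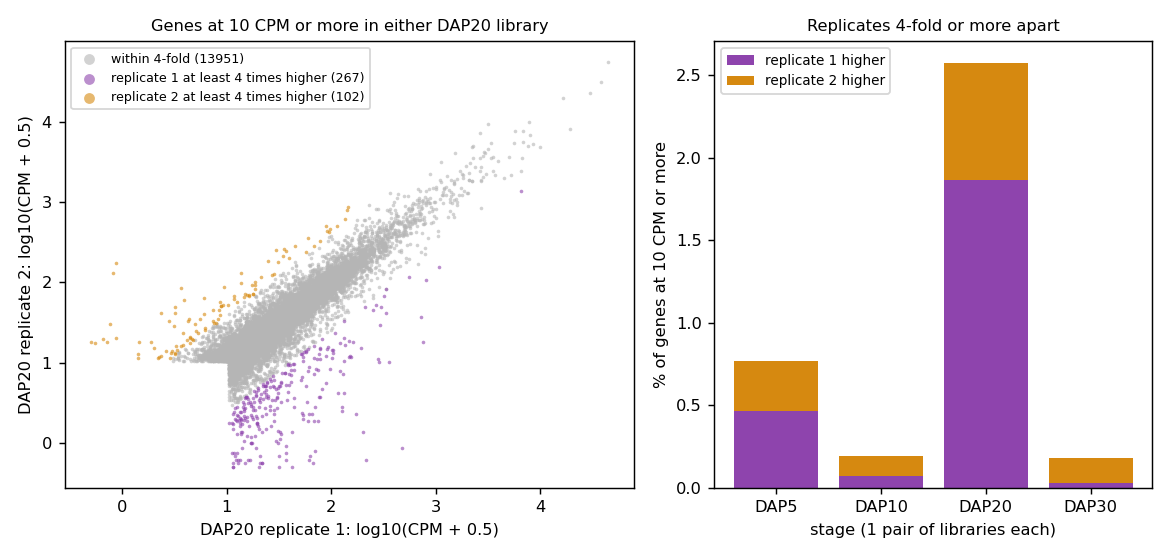
Left, level of each of the 14320 genes at 10 CPM or more in a DAP20 library, in replicate 2 (vertical) against replicate 1 (horizontal), as log10 of CPM plus 0.5, with genes at least 4 times higher in replicate 1 (267) or replicate 2 (102) in colour. Right, the percentage of genes at 10 CPM or more on which the 2 replicates of a stage differed 4-fold or more, split by which was higher, with 2.58% at DAP20 the tallest bar.

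Most genes higher in DAP20 replicate 1 were lower at DAP30 than at DAP10. The median over these 267 genes was 12.3 and 12.4 CPM in the DAP5 libraries, 19.5 and 18.2 CPM at DAP10, 28.1 and 2.93 CPM in DAP20 replicates 1 and 2, and 0.712 and 0.638 CPM at DAP30. Their DAP30 mean was below their DAP10 mean for 238 (89.1%), against 37.5% of all genes at 10 CPM or more in a DAP20 library. DAP10 and DAP30 took no part in choosing them, whereas the gap between the DAP20 libraries is the choice itself. Replicate 1 was above both DAP10 libraries for 153 of the 267 genes. The same held for 9014 of all 14320 genes at 10 CPM or more in a DAP20 library, so it does not mark out this set.

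The genes higher in DAP20 replicate 2 did not follow one course. The median over the 102 genes was 3.69 and 3.58 CPM at DAP5, 5.33 and 6.50 CPM at DAP10, 6.89 and 47.2 CPM in DAP20 replicates 1 and 2, and 2.34 and 7.90 CPM at DAP30. The DAP30 mean was below the DAP10 mean for 50 of them and above it for 50. The high value in DAP20 replicate 2 is what chose these genes.

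**Figure D5:**
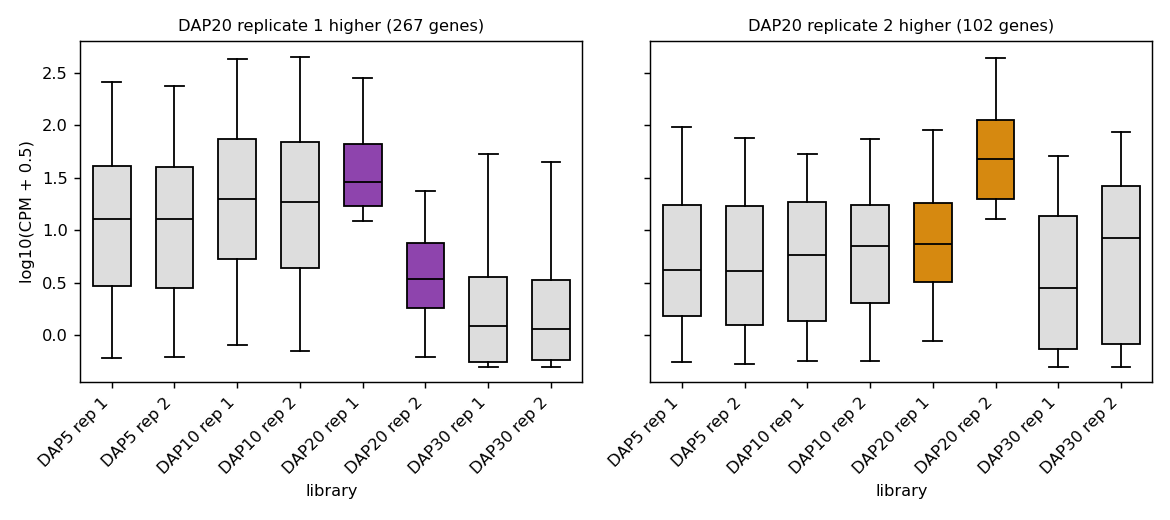
Levels in each of the 8 libraries, as log10 of CPM plus 0.5, of the 267 genes at least 4 times higher in DAP20 replicate 1 (left) and the 102 at least 4 times higher in replicate 2 (right). Boxes span the quartiles with the median as a line, whiskers the 5th to 95th percentile, and the DAP20 boxes are coloured because they chose the genes. On the left the DAP30 boxes lie below the DAP5 and DAP10 boxes, and on the right no such order is seen.

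A wider set of genes, chosen without any DAP20 library, placed replicate 2 further towards DAP30. In a fit of the other 6 libraries, 6667 genes were at least 4-fold lower and 2948 at least 4-fold higher at DAP30 than at DAP10, at an edgeR FDR below 0.05. Genes whose mean log2 levels, with 0.5 CPM added, differed less than 2-fold between these stages were left out. Along the log2 distance between DAP10 and DAP30, the median gene of the falling set had gone 72.1% of the way in DAP20 replicate 1 and 81.0% in replicate 2. In the rising set the median was 60.5% in replicate 1 and 67.05% in replicate 2. Replicate 2 was further along for 57.2% of the falling and 60.4% of the rising genes. The medians of the 2 libraries thus differed by 8.86 points in the falling and 6.55 points in the rising set, and all 4 were past the middle of the distance. With library totals the medians were 74.0% and 81.6% for the falling set and 61.1% and 66.5% for the rising set.

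Of the 369 genes on which the DAP20 libraries disagreed, 360 were tested. Of these 101 rose (28.1%), 48 fell (13.3%) and 211 were not called (58.6%), against 42.1%, 15.04% and 42.9% of all tested genes at 10 CPM or more in a DAP20 library. A wide gap within a stage enters the spread that the test uses, so fewer calls follow in part from how the genes were chosen. The DAP20 libraries lay on opposite sides of both DAP10 libraries for 88 of the 267 genes higher in replicate 1. They did so for 32 of the 102 genes higher in replicate 2. That made 120 of the 369 genes, against 1237 of all 14320 genes at 10 CPM or more in a DAP20 library. A wide gap makes such a position more likely, so the choice of genes favours it. For every such gene the direction of the step depends on which library is read. Of the 89 switched-on genes, 7 were among the 369, each with replicate 2 higher, and 82 are left without them. A further 39 genes met the limits for switching on in DAP20 replicate 1 alone and 22 in replicate 2 alone.

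The uncalled genes with the highest levels show both kinds of conflict. Lus10003554.g.BGIv1.0 had 6472 and 1354 CPM in DAP20 replicates 1 and 2, against 2997 and 1570 CPM in the DAP10 libraries. Replicate 1 lay above both DAP10 libraries and replicate 2 below both, and the log2 fold change was 0.78 ± 0.72 (SE, edgeR FDR = 0.387). It was -0.76 without DAP20 replicate 1 (FDR = 0.268) and 1.49 without replicate 2 (FDR = 0.0446). At DAP5 the gene had 0.381 and 1.07 CPM and at DAP30 214 and 267 CPM, with close replicates at DAP30.

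Lus10021179.g.BGIv1.0 had 1067 and 154 CPM in DAP20 replicates 1 and 2, against 2228 and 1525 CPM in the DAP10 libraries. Both DAP20 libraries were below DAP10 but 6.94 times apart, and the log2 fold change of -1.62 ± 0.76 was not called (SE, edgeR FDR = 0.108). It was -3.61 without DAP20 replicate 1 (FDR = 0.000592) and -0.82 without replicate 2 (FDR = 0.112), and DESeq2 called the gene with both libraries (adjusted p = 0.021). Its DAP30 levels were 51.6 and 66.7 CPM.

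Lus10040830.g.BGIv1.0 had 144 and 864 CPM in DAP20 replicates 1 and 2, against 204 and 216 CPM in the DAP10 libraries. The DAP10 pair was close while the DAP20 pair lay on either side of it, 6.01 times apart, and the log2 fold change was 1.26 ± 0.86 (SE, edgeR FDR = 0.247). It was 2.04 without DAP20 replicate 1 (FDR = 0.0396) and -0.56 without replicate 2 (FDR = 0.552). Its DAP30 libraries also differed, at 54.2 and 222 CPM, again with replicate 2 higher.

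Lus10026263.g.BGIv1.0 had 89.4 and 502 CPM in DAP20 replicates 1 and 2, against 80.4 and 76.0 CPM in the DAP10 libraries. Replicate 1 stood near the DAP10 pair and replicate 2 was 5.62 times higher than replicate 1, with a fitted log2 difference of 1.92 ± 0.87 (SE, edgeR FDR = 0.0995). It was 2.68 without DAP20 replicate 1 (FDR = 0.0164) and 0.18 without replicate 2 (FDR = 0.859). At DAP30 it had 28.7 and 140 CPM, so replicate 2 was the higher library there as well, whereas the DAP5 libraries were close at 136 and 116 CPM.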

How the data were processed

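The deposited file is a single table of unnormalized read counts, 1 column for each library, beside a gene length. The sources used here name no aligner, counter, genome build or strand setting, so reads shared by overlapping or near-identical genes could not be recognised. Columns were matched to samples by the library code in each sample's description. Of 40518 rows, 28749 passed filterByExpr (minimum count 10, minimum total 15). All 8 libraries entered 1 edgeR 4.0.16 quasi-likelihood fit in R 4.3.3 with stage as the term, TMM scaling and Benjamini-Hochberg adjustment. The fit was also run on simulated data in which few genes changed, as many upward as downward. Such data cannot show how the scaling acts when most genes change. SE is the size of the log2 fold change over the root of its F statistic. DESeq2 1.42.0 was an alternative. CPM of the classes and named genes uses the TMM library sizes.

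Named genes are the 2 that rose and the 2 that fell (FDR below 0.05, 4-fold or more, no overlap) with the highest mean at DAP20 or DAP10, and, among uncalled genes on which the DAP20 libraries disagree, the 2 highest in each library. The classes and rules were chosen with earlier results of these data known. Lists by gene name were not applied. Replicate pairs had a chi-square of 18.7 to 75.1 per degree of freedom, so each library counted as its own sample.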

Additional observations from a re-analysis of the deposited data

How the results depend on the processing

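With each of the 8 libraries left out in turn, the calls ran from 10010 to 15100, the genes that rose from 4441 to 7098 and those that fell from 5569 to 8002; a stage left with 1 library was assumed to vary like the others. The fall in calls without a DAP10 library was larger than without a DAP20 library, and the cause was not tested. Library totals gave 4572 genes that rose. A test against a 2-fold change gave 7508 calls, 2874 higher and 4634 lower at DAP20, fewer by construction. DESeq2 called 15102 genes, and the fit of only the DAP20 and DAP10 libraries 13609.

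The limits set the sizes of the classes. With 5 CPM counting as on, 134 genes switched on and 553 off, with no count as off 11 and 46, and with a mean below 1 CPM as off 137 and 436. With 1 of the 4 libraries left out they ran from 90 to 128 and from 277 to 395. Disagreement at DAP20 covered 1412 genes at a ratio of 2, 149 at a ratio of 8 and 138 with 50 CPM in the higher library, each time more than at any other stage. The reversals among named genes were those of Lus10003554.g.BGIv1.0 without DAP20 replicate 1, at -0.76 (1.49 without replicate 2), and Lus10040830.g.BGIv1.0 without DAP20 replicate 2, at -0.56 (2.04 without replicate 1). The positions of the DAP20 libraries between DAP10 and DAP30, with their alternatives, were added after the data were seen. Under library totals and at 2-fold they moved by less than 1 SD. That SD is taken over the medians of the 2 DAP20 libraries, so it only restates the gap between them.

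Replicate numbers are shared between stages, but the labels do not say that they pair libraries, and same-numbered deviations correlated at 0.0708 between DAP10 and DAP20 and from -0.027 to 0.147 over all pairs of stages. With the replicate block 14779 genes were called, 6989 higher and 7790 lower at DAP20.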
